A study of Mus musculus with 2 samples.

Results

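Myofibroblasts of the mouse lung were examined here as the authors annotated them: every cell of the deposited cell table whose cell type was Myofibroblasts, in both libraries. They numbered 445 of 18397 cells, with 201 of 8793 cells in the control diet (CD) library and 244 of 9604 cells in the high-fat diet (HFD) library. Both libraries came from lungs of female BALB/c mice, which entered the diets at 4 weeks of age and were 20 weeks old after 16 weeks of feeding. Energy from fat, protein and carbohydrates was 13%, 27% and 60% in CD and 60%, 20% and 20% in HFD, with lard as the fat. Lungs were perfused, digested with enzymes, filtered and freed of red blood cells, and droplet libraries were prepared with a target of 10000 cells each. Each diet had 1 library, and the sources used here do not say how many mice it pooled.

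Myofibroblasts are contractile mesenchymal cells that combine the actin and myosin apparatus of smooth muscle with the secretion of extracellular matrix. In the lung they sit at alveolar entrances and ducts, where they are known for laying down elastic fibers, and they expand in fibrosis. Airway and vascular smooth muscle cells share most of their contractile genes, so that a droplet annotation built on such genes can hold both. Fibroblasts, which build the collagen matrix, and pericytes, which wrap capillaries, are the other mesenchymal cells annotated in these libraries and served as comparison. What was measured per cell was the number of unique molecular identifiers (UMIs, each standing for 1 captured transcript), the number of detected genes, and the percent of UMIs from mitochondrially encoded genes.

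Values of single genes per cell were not analysed here, so the label could not be checked against the levels of its markers. The gene table states, for each of 19278 genes, whether it was among the highly variable genes from which the authors computed their map of cells, and 1000 genes (5.19%) carried that flag. All 3 myofibroblast markers carried it: Acta2, smooth muscle alpha actin (chr19:34241090-34255590, minus strand), Tagln, the actin-binding protein transgelin (chr9:45929619-45936058, minus strand), and Myh11, the smooth muscle myosin heavy chain (chr16:14194535-14291372, minus strand). The positions are those of GENCODE M21 on GRCm38. The flag was set over all cells of both libraries, and it gives neither a level nor a direction between diets or cell types.

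The flag was then read for lists of genes. The lists overlap in some genes, such as Hhip, Pdgfra and Pdgfrb, so their shares are not independent. Of 14 genes in a smooth muscle contractile list, 11 (78.6%) carried the flag. Besides Acta2, Tagln and Myh11 these were Cnn1 (calponin), Actg2 (smooth muscle gamma actin), Myl9 (a myosin regulatory light chain), Tpm2 (a tropomyosin), Des (the intermediate filament desmin), Lmod1 (the actin nucleator leiomodin), Synpo2 (an actin-associated protein) and Hhip, which binds hedgehog ligands. Smtn (smoothelin), Mylk (myosin light chain kinase) and Pln (phospholamban, a regulator of calcium uptake) did not carry it. Of 12 genes of alveolar and ductal myofibroblasts, 8 (66.7%) were flagged, among them Aspn (a small matrix proteoglycan), Fgf18 (a fibroblast growth factor) and Pdgfra (the PDGF receptor alpha), whereas Lgr6, Cdh4, Wnt5a and P2ry14 were not.

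Matrix and signaling genes were counted in the same way. Among 12 elastic fiber and matrix genes, 9 (75%) were flagged, including Eln (elastin) and Fbln5 (an elastic fiber assembly protein), and Fbn1, Loxl1 and Cthrc1 were not. Of 13 genes of TGF-beta and PDGF signaling, the pathways best known for driving the contractile state and the recruitment of these cells, 4 (30.8%) were flagged. Among them were the ligand Tgfb2 and the receptors Pdgfra and Pdgfrb, while the ligand Tgfb1 and the receptors Tgfbr1 and Tgfbr2 were not. Of the lists for the neighboring cells, 14 of 14 matrix fibroblast genes, 5 of 6 lipofibroblast genes and 9 of 10 pericyte genes, Cspg4 among them, were flagged, so the map was built on markers of all 3 mesenchymal types. Short lists for other lineages gave 4 of 4 immune, 3 of 4 mesothelial, 2 of 3 epithelial and 0 of 3 endothelial markers, so a high share was not particular to contractile genes.

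Next, the share of myofibroblasts was compared between the diets. Myofibroblasts made up 2.29% of CD cells (exact 95% interval 1.98% to 2.62%) and 2.54% of HFD cells (2.24% to 2.88%). The intervals overlapped, and the HFD to CD ratio was 1.11 (exact interval 0.918 to 1.35), so a difference was not detectable at this number of cells. For scale, the intervals of both diets did not overlap for 5 of the 17 annotated cell types (29.4%), and myofibroblasts were not among them. All intervals here cover counting error only. Because a diet was represented by a single library, no test was run, and diet cannot be told apart from library or from the mice.

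Other denominators gave like shares in both diets. Myofibroblasts were 14.1% of the CD mesenchyme (12.3% to 16.0%) and 13.4% of the HFD mesenchyme (11.9% to 15.1%), which is a ratio of 0.952 (0.787 to 1.15). Among annotated cells outside the immune lineages the shares were 4.08% and 4.30% (ratio 1.05, 0.871 to 1.28). The direction of the small difference therefore changed with the denominator, and every one of these intervals included equality.

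Fibroblasts held 9.97% of CD and 12.4% of HFD cells, without overlap of the intervals, and pericytes held 3.95% and 3.98%. There were 0.229 myofibroblasts per fibroblast in CD against 0.205 in HFD, an HFD to CD ratio of 0.894 (0.724 to 1.10). Per pericyte there were 0.579 (CD) and 0.639 (HFD), an HFD to CD ratio of 1.10 (0.864 to 1.41). Neither balance differed between the diets beyond counting error. These are shares of captured cells, and the number of cells in the tissue was not measured.

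**Figure D1:**
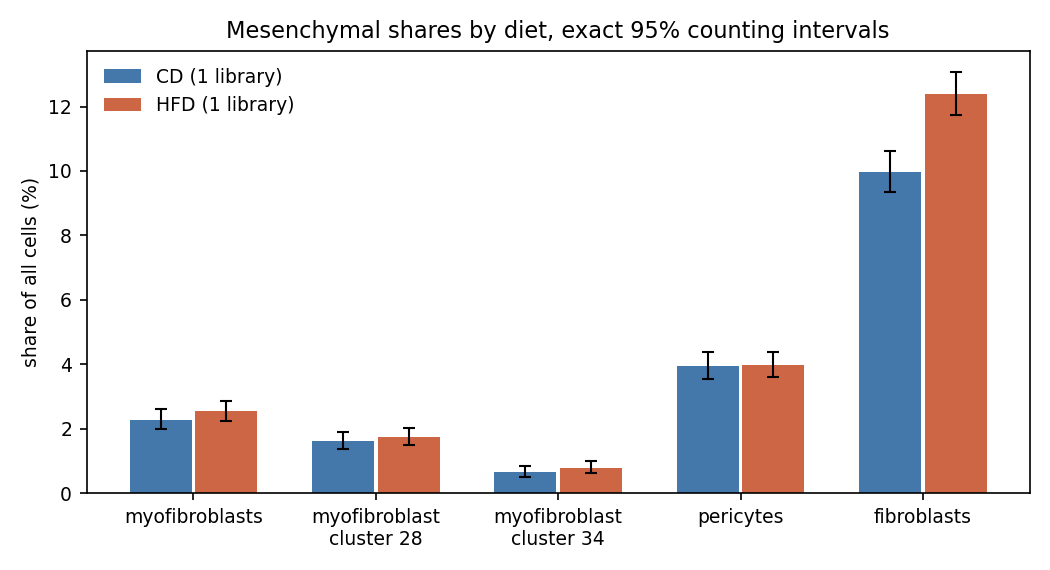
Share of all cells (percent, vertical axis from 0) of myofibroblasts, their fine clusters 28 and 34, pericytes and fibroblasts in the CD and HFD libraries, with bars for 1 library each and lines for exact 95% counting intervals. The CD and HFD intervals of myofibroblasts (2.29% and 2.54%) and of both their clusters overlap, and those of fibroblasts (9.97% and 12.4%) do not.

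Myofibroblasts consisted of 2 of the 51 fine clusters that the authors drew on the map. Cluster 28 held 311 cells, 143 in CD and 168 in HFD, and cluster 34 held 134 cells, 58 in CD and 76 in HFD. Cluster 28 thus made up 71.1% of CD myofibroblasts (64.4% to 77.3%) and 68.9% of HFD myofibroblasts (62.6% to 74.6%), a difference of -2.29 percentage points (-10.7 to 6.30). There were 2.47 cells of cluster 28 per cell of cluster 34 in CD and 2.21 in HFD. The make-up did not differ detectably between the diets, although the interval allows a shift of up to 10.7 points.

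As shares of all cells, cluster 28 took 1.63% in CD and 1.75% in HFD (ratio 1.08, 0.855 to 1.35). Cluster 34 took 0.660% and 0.791% (ratio 1.20, 0.841 to 1.72). Across the 51 fine clusters, 13 (25.5%) had intervals that did not overlap between the diets, and neither myofibroblast cluster was one of them. In the other mesenchymal types, fibroblast cluster 22 took 1.35% of CD and 2.57% of HFD cells and fibroblast cluster 38 took 0.171% and 0.646%, in both cases without overlap.

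Position on the map separated myofibroblasts from the other mesenchymal cells. The UMAP plane places cells with similar expression of the highly variable genes near each other, and the fine clusters were drawn in this same plane, so that positions are a description and not a test of the clusters. Among the 15 nearest cells of each myofibroblast, all 6675 neighbors counted over the 445 cells were myofibroblasts. Of these neighbors, 6667 belonged to the cell's own cluster and 8 to the other myofibroblast cluster. The clusters were adjoining, with 0.115 map units between their centers and 0.0144 between their closest cells.

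Cluster 28 lay closest to pericytes among the other mesenchymal types, and cluster 34 to fibroblasts. From the center of cluster 28, the pericyte clusters were 0.309 (cluster 35), 0.315 (cluster 41) and 0.360 (cluster 14) away, and the fibroblast clusters 0.460 (cluster 8) to 0.638 (cluster 26). From the center of cluster 34 the nearest fibroblast cluster was 0.345 away (cluster 8) and the nearest pericyte cluster 0.388 (cluster 41). The types did not touch on the map, since the closest myofibroblast and pericyte cells were 0.229 apart for cluster 28, and the closest myofibroblast and fibroblast cells 0.271 apart for cluster 34. Distances across such gaps in a UMAP plane are not a measure of likeness: by center the nearest cluster of another type was a plasmacytoid dendritic cell cluster for cluster 28 (0.178) and an AT1 cell cluster for cluster 34 (0.275), both named after the values were seen.

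**Figure D2:**
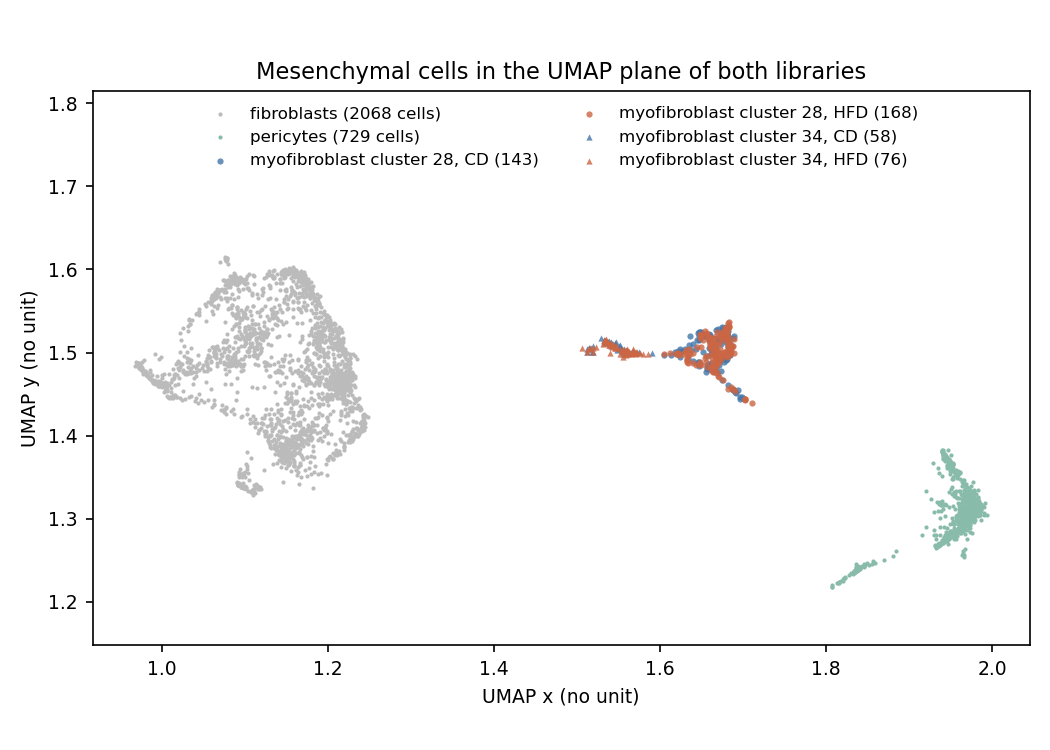
Position of 445 myofibroblasts, 2068 fibroblasts and 729 pericytes in the UMAP plane of both libraries (axes without unit), with each point 1 cell, circles for cluster 28, triangles for cluster 34, and color for diet. Myofibroblasts form 1 patch with a narrow tail, cluster 34, on the side toward the fibroblasts, and CD and HFD cells overlie each other.

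CD and HFD myofibroblasts were mixed on the map. HFD cells were 54.8% of all myofibroblasts, 55.3% of the neighbors of HFD myofibroblasts and 52.8% of the neighbors of CD myofibroblasts. In cluster 28 the centers of CD and HFD cells were 0.00697 apart, below the median distance of its cells from the center (0.0194). In cluster 34 they were 0.00612 apart, against a median distance of 0.0129. Both shifts were smaller than the spread of cells within the cluster.

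Taken as a whole, myofibroblasts yielded more UMIs per cell than pericytes in both libraries. The CD median was 4386 UMIs (interval over cells 4046 to 5164, range 1081 to 18114) and the HFD median 5423.5 (4596 to 6017, range 1019 to 22132). In pericytes the medians were 2825 and 3011.5. The myofibroblast median was 1.55 times the pericyte median in CD (1.35 to 1.97) and 1.80 times in HFD (1.44 to 2.13), and the intervals of the medians did not overlap in either library. This order did not hold for every cluster. Pericyte cluster 41 had medians of 10189.5 (CD) and 10411.5 (HFD) UMIs, above those of both myofibroblast clusters. In HFD the median of cluster 34 (3156) was below that of pericyte cluster 35 (3644).

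Fibroblasts gave another picture. Their medians were 4585 UMIs in CD and 4313 in HFD, so that myofibroblasts stood at 0.957 times the fibroblast level in CD (0.849 to 1.21) and 1.26 times in HFD (1.01 to 1.48). The HFD ratio changed with a limit on UMIs: it was 0.999 among cells with at least 2000 UMIs and 1.07 (0.920 to 1.21) among cells with at least 3000. With at most 10% mitochondrial UMIs it was 1.21, and its interval then included 1 (0.928 to 1.44). Cells under 2000 UMIs numbered 184 of 877 CD fibroblasts and 340 of 1191 HFD fibroblasts (28.5%), but made up 9.95% (6.18% to 14.9%) of CD myofibroblasts and 6.97% (4.11% to 10.9%) of HFD myofibroblasts. Over all cells the shares were 21.2% (CD) and 20.6% (HFD), and in pericytes 22.2% and 22.5%. In fibroblast cluster 12 they were 3.08% and 3.17%. The shallow fibroblasts included cluster 22, with medians of 1310 and 1327 UMIs, and cluster 38, with 1339 and 1346.5.

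Between diets, the myofibroblast median of UMIs was 1.24 times higher in HFD (0.890 to 1.49). That of detected genes was 1.13 times higher (1921 in CD, 2175.5 in HFD; 0.946 to 1.31). For mitochondrial percent the CD median was 3.31% (3.03% to 3.59%) and the HFD median 3.77% (3.51% to 3.98%), which gives a ratio of 1.14 (0.978 to 1.31). The intervals of the medians overlapped for all 3 measures. Among cells with at least 3000 UMIs those of detected genes did not (ratio 1.17, 1.004 to 1.29). Among the 17 cell types the CD and HFD intervals over all cells did not overlap for 7 (41.2%) in UMIs, for 7 (41.2%) in detected genes and for 5 (29.4%) in mitochondrial percent. The myofibroblast ratio ranked 6th, 6th and 5th from the top. Over all cells, the HFD library was the deeper one, with medians of 3591 against 3356 UMIs, so a higher count was not particular to these cells.

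The larger difference lay between the 2 myofibroblast clusters. In cluster 28 the CD median was 5603 UMIs (5164 to 6897) and the HFD median 7023 (6425 to 7650). In cluster 34 they were 3382 (3157 to 3560) and 3156 (2896 to 3477). Cluster 28 therefore carried 1.66 times the UMIs of cluster 34 in CD (1.45 to 2.18) and 2.23 times in HFD (1.85 to 2.64). The intervals did not overlap in either library, and the order of the clusters was the same in each.

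The HFD to CD ratio was 1.25 in cluster 28 (0.932 to 1.48) and 0.933 in cluster 34 (0.813 to 1.10). The clusters thus moved in opposite directions, each within its counting error, and this difference was not tested. Among cells with at least 3000 UMIs the ratios were 1.09 in cluster 28 and 1.02 in cluster 34, so the directions were no longer opposite. Of the 48 fine clusters for which medians could be compared, 11 (22.9%) had intervals of CD and HFD that did not overlap, and neither myofibroblast cluster was among them. Cluster 34 was also the more uniform cluster. The middle part of its cells, between the quartiles, ran from 2735 to 3855 UMIs in CD and from 2678 to 3876.75 in HFD, whereas in cluster 28 it ran from 3784 to 8023.5 and from 4509.75 to 9304.

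**Figure D3:**
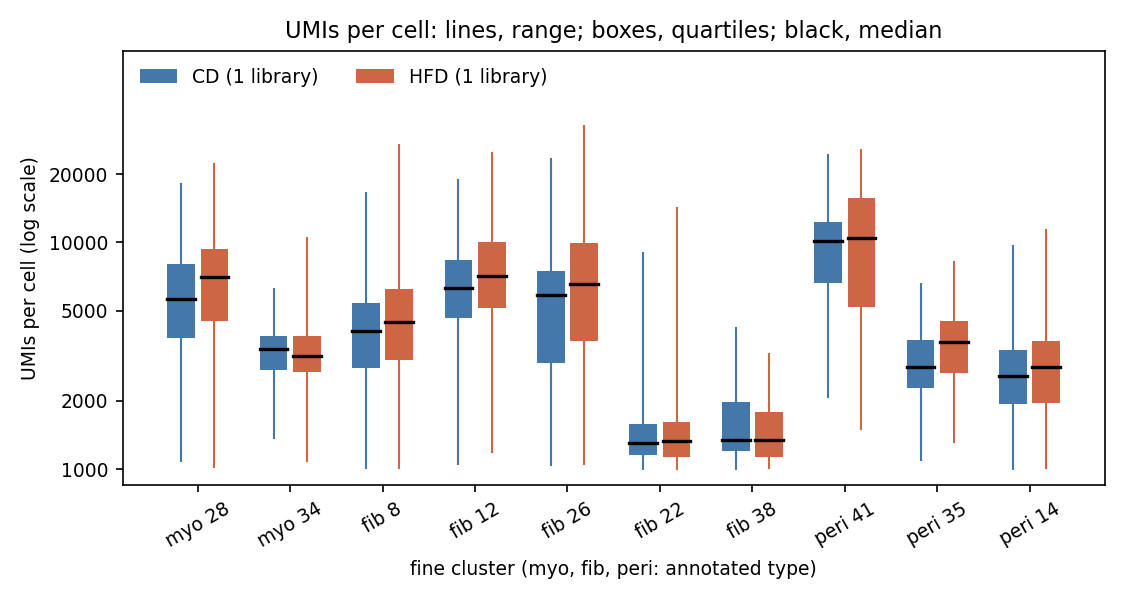
UMIs per cell (log scale) in each fine cluster of myofibroblasts (myo), fibroblasts (fib) and pericytes (peri), with the range as a line, the quartiles as a box and the median in black, for the CD and HFD libraries. Myofibroblast cluster 28 (medians 5603 and 7023) lies above cluster 34 (3382 and 3156) in both libraries, and fibroblast clusters 22 and 38 form the low end.

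Detected genes followed the UMIs. Medians were 2248 genes in CD and 2550.5 in HFD for cluster 28, and 1479 and 1482 for cluster 34, so cluster 28 had 1.52 times (CD) and 1.72 times (HFD) as many. Spearman's rho between UMIs and detected genes was 0.98 in cluster 28 in both libraries, and 0.92 (CD, 58 cells) and 0.94 (HFD, 76 cells) in cluster 34. Both measures come from the same UMIs of a cell, and the rho values are a description across cells of 1 library.

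To compare cells of like depth, each cell was set against the median of comparison cells of its own library within 25% of its UMIs. Cluster 28 then had 1.10 times the genes of cluster 34 in CD (1.08 to 1.15, 53 of 143 cells matched). In HFD it had 1.09 times (1.07 to 1.10, 59 of 168 cells matched). The other cells of cluster 28 had fewer than 10 cells of cluster 34 within the window. With a window of 10% the excess was 1.07 times in both libraries. Over the matched cells, the gap in detected genes between the clusters was thus smaller than in the medians, with the same direction. The medians cover all cells of cluster 28 and the matched ratios only part of them, so these gaps come from unlike sets of cells. In bands from 2000 to 6000 UMIs the median of cluster 28 was higher in each library, with overlapping intervals. In HFD at 2000 to 3000 UMIs the medians were 1295 and 1292 genes. At 1000 to 2000 UMIs, with both libraries together, the order was reversed. The median was 777 genes in 25 cells of cluster 28 and 912.5 in 12 cells of cluster 34, with overlapping intervals.

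Against pericytes at matched UMIs, myofibroblasts had fewer genes, 0.944 times in CD (0.921 to 0.959) and 0.948 times in HFD (0.939 to 0.956). This is the reverse of the unmatched medians, where myofibroblasts had 1.30 and 1.38 times the genes of pericytes. Against fibroblasts the matched ratio was 1.03 in both libraries, and 1.00 and 1.01 with a window of 10%, where both intervals included 1. HFD myofibroblasts had 1.03 times the genes of CD myofibroblasts at matched UMIs (1.02 to 1.04), and the same comparison gave 1.03 in fibroblasts, 1.03 in pericytes and 1.04 over all cells. A straight-line fit of genes on UMIs gave 1.00 for this comparison in myofibroblasts.

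**Figure D4:**
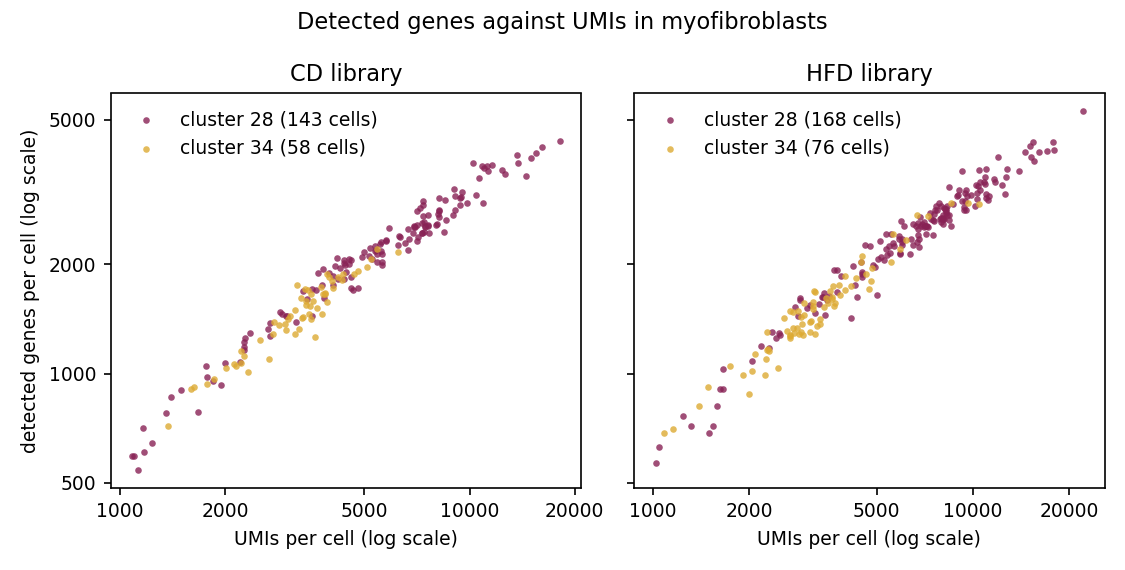
Detected genes against UMIs per cell (both axes on a log scale) for each myofibroblast of the CD and HFD libraries, colored by fine cluster. Both clusters lie along 1 curve, cluster 34 within the lower range of cluster 28. The matched ratios of cluster 28 to 34, over the cells of cluster 28 that could be matched, were 1.10 (CD) and 1.09 (HFD). At 1000 to 2000 UMIs the order of the medians was reversed.

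Median mitochondrial content also differed between the clusters, which differ in depth. In cluster 28 the CD median was 3.92% of UMIs (3.51% to 4.43%) and the HFD median 4.07% (3.87% to 4.45%), against 2.69% (2.52% to 2.83%) and 2.71% (2.49% to 3.19%) in cluster 34. Cluster 28 was thus 1.46 times (CD) and 1.51 times (HFD) higher, with no overlap of the intervals in either library. For myofibroblasts as a whole the median was 1.22 times that of pericytes in CD and 1.25 times in HFD, without overlap. Against fibroblasts it was 1.09 times in CD (0.970 to 1.24, with overlap) and 1.11 times in HFD (1.002 to 1.21, without overlap). With at most 10% mitochondrial UMIs the HFD interval included 1 (0.966 to 1.22). From 3000 UMIs upward the ratio to fibroblasts was 1.22 in both libraries, with intervals above 1.

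Over all depths and all fibroblast clusters together, the myofibroblast clusters stood on opposite sides of fibroblasts. The fibroblast clusters differed among themselves, with median mitochondrial percent from 2.71% (CD) and 2.98% (HFD) in cluster 12 to 7.67% and 7.85% in cluster 38. At matched UMIs, cluster 28 had 1.33 times the mitochondrial percent of fibroblasts in CD (1.14 to 1.56) and 1.27 times in HFD (1.18 to 1.37). Cluster 34 had 0.777 times (0.709 to 0.843) and 0.744 times (0.640 to 0.833). These ratios kept their direction and their intervals clear of 1 with a window of 10%. At 2000 to 4000 UMIs, however, both clusters had lower medians than fibroblasts, and the clusters were close to each other. At 3000 to 4000 UMIs they were 2.92% (CD) and 2.42% (HFD) in cluster 28 and 2.69% and 2.32% in cluster 34, against 3.36% and 3.87% in fibroblasts, and at these numbers of cells (12 and 14) the intervals of cluster 28 overlapped those of fibroblasts. The matched ratios of cluster 28, taken over all its cells, thus do not describe its shallower cells. The matched comparison of mitochondrial percent was chosen after the values were seen.

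Against pericytes at matched UMIs, cluster 28 stood at 1.28 times in CD (1.17 to 1.42) and 1.23 times in HFD (1.13 to 1.33), and with a window of 10% the HFD value was 1.14 (0.974 to 1.31). Cluster 34 stood at 1.05 times (0.954 to 1.12) and 0.922 times (0.840 to 1.02), not detectably different from pericytes. These matched intervals leave out the error of the comparison pericytes. At 6000 to 10000 UMIs there were only 17 (CD) and 12 (HFD) pericytes. Within each library, the mitochondrial intervals of cluster 28 and pericytes overlapped in every band of UMIs. With both libraries together they were apart only at 4000 to 6000 UMIs (3.14% to 3.87% against 2.48% to 3.00%). Between the clusters themselves the matched ratio was 1.18 for CD (1.04 to 1.42) and 1.28 for HFD (1.01 to 1.43), and with a window of 10% it was 1.16 (0.756 to 1.44) and 1.07 (0.918 to 1.92). The clusters share few cells of the same depth, which limits this last comparison.

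In cluster 28 the median mitochondrial percent was higher above 6000 UMIs than at 4000 to 6000 UMIs, whereas in fibroblasts it was not. In cells of 4000 to 6000 UMIs the median of cluster 28 was 3.47% in CD and 3.71% in HFD, and that of fibroblasts 2.86% and 3.17%. In cells of 6000 to 10000 UMIs it was 4.97% for CD (4.06% to 5.42%, 49 cells) and 4.20% for HFD (3.93% to 4.54%, 68 cells), against 2.76% (2.63% to 2.93%) and 3.15% (3.02% to 3.27%) in fibroblasts. Between these bands the cluster 28 intervals were apart in CD and overlapped in HFD. Above 10000 UMIs the cluster 28 median was 4.58% (CD) and 4.81% (HFD), against 2.78% and 2.96% in fibroblasts. Its intervals there (3.40% to 5.26% and 3.96% to 5.65%) overlapped those at 4000 to 6000 UMIs. The difference from fibroblasts in this step was not tested. Pericytes also had higher medians in deeper cells: 2.69% (CD) and 2.78% (HFD) at 4000 to 6000 UMIs, 3.46% and 3.37% at 6000 to 10000, and 3.27% and 3.75% above. At 6000 to 10000 UMIs there were 17 and 12 pericytes, and the intervals overlapped those at 4000 to 6000. Above 10000 UMIs they were apart in HFD (3.25% to 5.53%) and overlapped in CD. Pericyte cluster 41, the deepest by median, had 3.53% (CD) and 3.71% (HFD), against 2.64% and 3.01% in cluster 14. The bands of pericytes thus also differ in their mix of clusters. Shallower cells of cluster 28 showed no steady trend: the medians were 3.59% (CD) and 4.25% (HFD) at 1000 to 2000 UMIs, in 15 and 10 cells with wide intervals, and 2.87% and 2.99% at 2000 to 3000 UMIs, where fibroblasts had 3.69% and 3.90%. Spearman's rho between UMIs and mitochondrial percent was 0.30 (CD) and 0.25 (HFD) across the cells of cluster 28, and -0.03 and -0.01 across those of cluster 34.

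**Figure D5:**
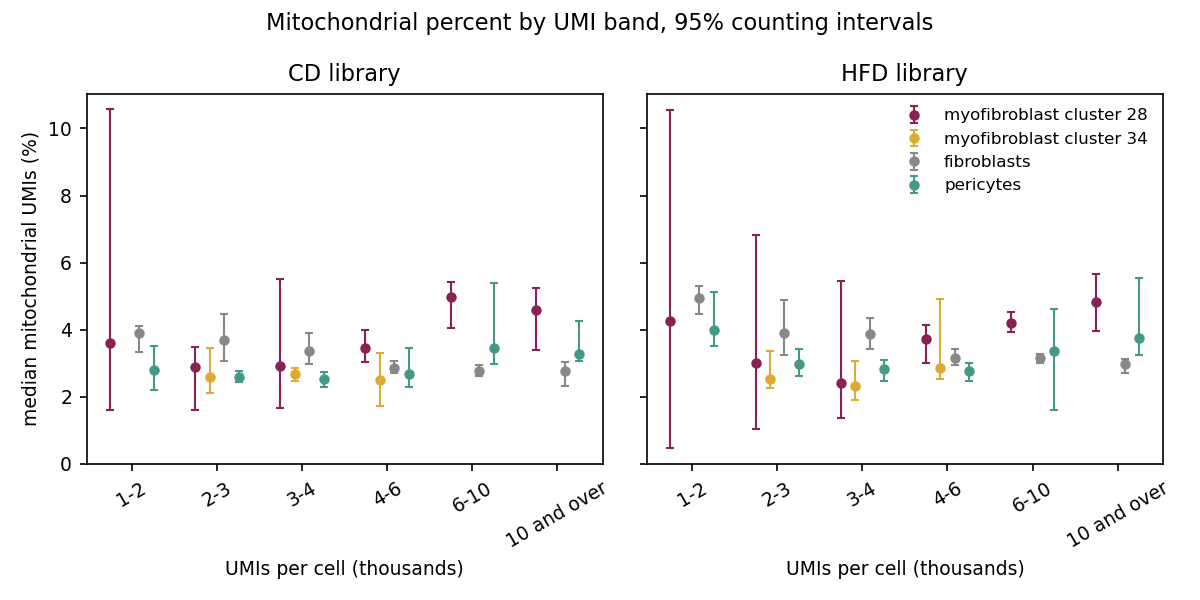
Median mitochondrial percent of UMIs (vertical axis from 0) by band of UMIs per cell in myofibroblast clusters 28 and 34, fibroblasts and pericytes of the CD and HFD libraries, with 95% counting intervals over cells and only bands of at least 10 cells. From 6000 UMIs upward cluster 28 (4.97% in CD and 4.20% in HFD at 6000 to 10000 UMIs) lies above fibroblasts (2.76% and 3.15%) in both libraries, and at 2000 to 4000 UMIs its medians lie below theirs with overlapping intervals.

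The edges of the quality measures were counted next. A mitochondrial percent above 10 was found in 6 CD myofibroblasts (2.99%) and 7 HFD myofibroblasts (2.87%), compared with 2.49% and 4.15% of all cells, 2.74% and 4.70% of fibroblasts, and 0.865% and 1.05% of pericytes. A percent under 1 was found in 4 CD myofibroblasts (1.99%) and 6 HFD myofibroblasts (2.46%), compared with 7.76% and 7.24% of all cells. Fibroblasts had 8.21% and 6.80%, and pericytes 6.05% and 3.14%. The fibroblast clusters differed, with 2.58% and 3.45% in cluster 8 and 21.8% and 13.4% in cluster 22, so a low share was not particular to myofibroblasts. Among the 1% of cells with most UMIs there were 0 of 201 CD and 0 of 244 HFD myofibroblasts, which allows shares of up to 1.82% and 1.50% (exact upper limits). No removal of doublets is stated in the sources used here.

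Myofibroblasts held 1079912 of 42470977 UMIs in CD (2.54%) and 1488075 of 50679251 in HFD (2.94%), a larger part than their share of cells in each. The same cell barcode occurred in both libraries 27 times. In 2 of these cases the cell was a myofibroblast in 1 library, and in 0 cases in both.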

How the data were processed

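Droplet single-cell libraries of whole lung, 1 per diet, were mapped by the authors with Cell Ranger to mm10 (GRCm38.p6), merged in Seurat 4.1.0 (version per the submitters' processing notes), and converted for Monocle. Per the study's methods, cells above 20% mitochondrial content, below 500 UMIs or below 250 genes were removed. All 18397 deposited cells lie within these limits, and the lowest UMI count is 1000. The authors then normalised both libraries together, reduced them to principal components and a UMAP plane, clustered that plane and annotated clusters by hand. The labels name a kit for the 3' end and the methods one for the 5' end.

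The deposited table of cells gives raw counts of UMIs and of detected genes, the mitochondrial percent as the authors computed it, the fine cluster, the type, and UMAP coordinates, used here as a deposited score without unit. The deposited table of genes gives the highly variable flag. Values of single genes per cell were not analysed here.

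Cells were grouped by library name. Shares were given exact (Clopper-Pearson) 95% intervals, ratios of shares exact intervals conditional on the cells of both libraries, and medians order-statistic intervals. The interval of a ratio of medians joins the outer bounds of both. Matching used comparison cells within 25% of a cell's UMIs, at least 10 of them, and its intervals leave out the error of the comparison cells. Neighbors were the 15 nearest cells in the plane. Alternatives were other limits on UMIs, genes and mitochondrial percent, leaving out shared barcodes or the deepest cells, each cluster alone, other denominators, a narrower window and a straight-line fit. The intervals of share ratios, medians and ratios of medians were tested on simulated data with cells drawn independently. Other intervals, those of matched ratios among them, were not tested in this way. Python 3.11.15 with numpy 2.4.6, pandas 2.3.3, scipy 1.17.1 and matplotlib 3.10.9 was used. The cells and gene lists were chosen with earlier results of these data known. The named genes are all genes of the contractile list, key genes of the other lists and, for 3 lists, the members without the flag. The flag of 1 gene under that rule is not reported here.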

Additional observations from a re-analysis of the deposited data

Results flagged for a closer look

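The median of UMIs per cell moved in opposite directions between the diets in the 2 myofibroblast clusters. The HFD to CD ratio was 1.25 in cluster 28 (5603 and 7023 UMIs) and 0.933 in cluster 34 (3382 and 3156 UMIs). Both intervals include 1, each diet had 1 library, and the difference between the clusters was not tested. Among cells with at least 3000 UMIs the ratios were 1.09 and 1.02, no longer in opposite directions. Over all cells the ratio was 1.07.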

How the results depend on the processing

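Of 181 alternative values for 57 results, 168 stayed on the same side of their call or within the reported error, 12 moved and 1 reversed. The reversed one was the UMI ratio of myofibroblasts to fibroblasts in HFD, 0.999 from 2000 UMIs upward, where the ratio of detected genes was 1.01. From 3000 UMIs upward that UMI ratio was 1.07. From 3000 UMIs upward the mitochondrial ratio to fibroblasts in HFD was 1.22 and the ratio of detected genes to pericytes in CD 1.15. With a 10% window, detected genes at matched UMIs stood at 1.00 (CD) and 1.01 (HFD) against fibroblasts, 0.924 against pericytes in HFD, 1.02 for HFD against CD, and 1.07 (CD) and 1.07 (HFD) for cluster 28 against 34. The 10% window within clusters and the cell limits on the UMI ratio of each cluster were chosen after seeing the data. With a straight-line fit they stood at 0.914 (CD) and 0.912 (HFD) against pericytes and 1.00 for HFD against CD. Of the 168, 7 changed direction across equality, all for results whose reported interval already included it, such as the UMI ratio between diets in cluster 34 (1.02 from 3000 UMIs upward) and in all myofibroblasts (0.933 without cluster 28), and the mesenchymal share ratio (1.04 from 2000 UMIs upward). The share ratio of myofibroblasts between diets ranged from 1.05 to 1.20. No paired analysis was possible because CD and HFD are single libraries. Leaving out the deepest 1% of cells removed 0 myofibroblasts, so it says nothing about them.

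Precision is set by 201 and 244 cells: the interval of the share ratio ran from 0.918 to 1.35. Intervals cover counting error only, and spread between mice was not measured.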
